A study of Mus musculus with 2 samples.

Results

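Homeobox genes outside the lineage of the hypothalamic paraventricular nucleus (PVN) were examined in a CUT&RUN study of Otp (Orthopedia), a homeodomain transcription factor of that nucleus. The study asked if the protein sits on the promoter of Mc4r, a melanocortin receptor. The 110 genes, of 21887 protein-coding genes in all, were chosen by symbol: every mouse gene named Hox (clusters a to d), Nkx, Lhx, Dlx, Irx, Meis, Pbx, Pitx, Msx, Emx, Otx, Prrx, Alx, Vsx, Cux, Onecut or Tgif with a number, and the sine oculis family to which Six3 belongs. They fall into 18 families, with 39 Hox genes, 14 Nkx, 8 Lhx, 6 each of Dlx, Irx and the sine oculis family, 4 Pbx, 3 each of Alx, Meis, Msx, Onecut and Pitx, and 2 each of Cux, Emx, Otx, Prrx, Tgif and Vsx. The study has 2 libraries. One was made with an Otp antibody and the other with IgG, an antibody with no target, each from adult PVN tissue of WT mice, with neurons given as the cell type. The nuclei were isolated by douncing and a sucrose cushion, with no sorting step described. In CUT&RUN an antibody directs a nuclease to the protein on chromatin, and the DNA cut free is sequenced. The data are 1 list of called regions per library, 11379 with Otp and 291 with IgG. With 1 library per antibody there is no replicate check and no test between them.

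Homeobox genes encode transcription factors with a homeodomain, a DNA-binding fold that in many families prefers sites with the core TAAT. Hox genes lie in tight clusters, give cells their position along the trunk and hindbrain, and are held silent in the forebrain by Polycomb repression. Lhx, Dlx, Nkx, Otx, Emx, Vsx and sine oculis genes pattern regions of the forebrain, eye and hypothalamus. Pbx and Meis belong to the TALE class, whose members pair with Hox and other homeodomain proteins on DNA and are used in many tissues. Region lists hold no expression values, so whether a gene was active in these cells was not measured, and neither could the label of the tissue be checked against marker expression.

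A gene was counted as carrying an Otp region when the summit of a region, its highest point, lay within 1 kb of either end of the gene. This held for 9 of the 110 homeobox genes (8.18%, 95% exact binomial interval 3.81 to 15.0%), against 27.2% of all protein-coding genes. Genes of the same length deciles gave 25.6%, which corresponds to 28.2 genes among 110. The interval covers counting error only, and genes of one cluster are not independent. Among the 9 were Pbx3, Pbx4, Meis1, Lhx5, Dlx5, Cux1, Onecut2 and Hoxb8. In each case the nearest protein-coding gene end was that of the homeobox gene itself. No IgG region overlapped any of the 9 regions. None of the 110 genes had an IgG region at an end, where 0.379% of all genes had one, so this zero says little about the homeobox genes.

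The division by family was uneven. Of the Hox genes, 1 of 39 carried an Otp region (2.56%, 0.0649 to 13.5%), against 23.3% of length-matched genes. Of the other families, 8 of 71 genes had one (11.3%, 4.99 to 21%), against 26.9%. The intervals of the Hox genes and of the other families overlap, which is no test of a difference. No such test was run, so a difference between them is not shown. The regional forebrain, eye and hypothalamic families had 2 of 40 (5.0%, 0.611 to 16.9%, against 25.7% of length-matched genes). The TALE class (Pbx, Meis, Irx and Tgif) had 4 of 15 (26.7%, 7.79 to 55.1%, against 26.8%), all in Pbx and Meis, with 0 of 6 Irx and 0 of 2 Tgif genes. The CUT class (Cux and Onecut) had 2 of 5, against 31.3%, and the families Pitx, Prrx, Alx and Msx had 0 of 11, against 28.9%. With so few genes these last groups have wide intervals, 5.27 to 85.3% and 0 to 28.5%.

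**Figure D1:**
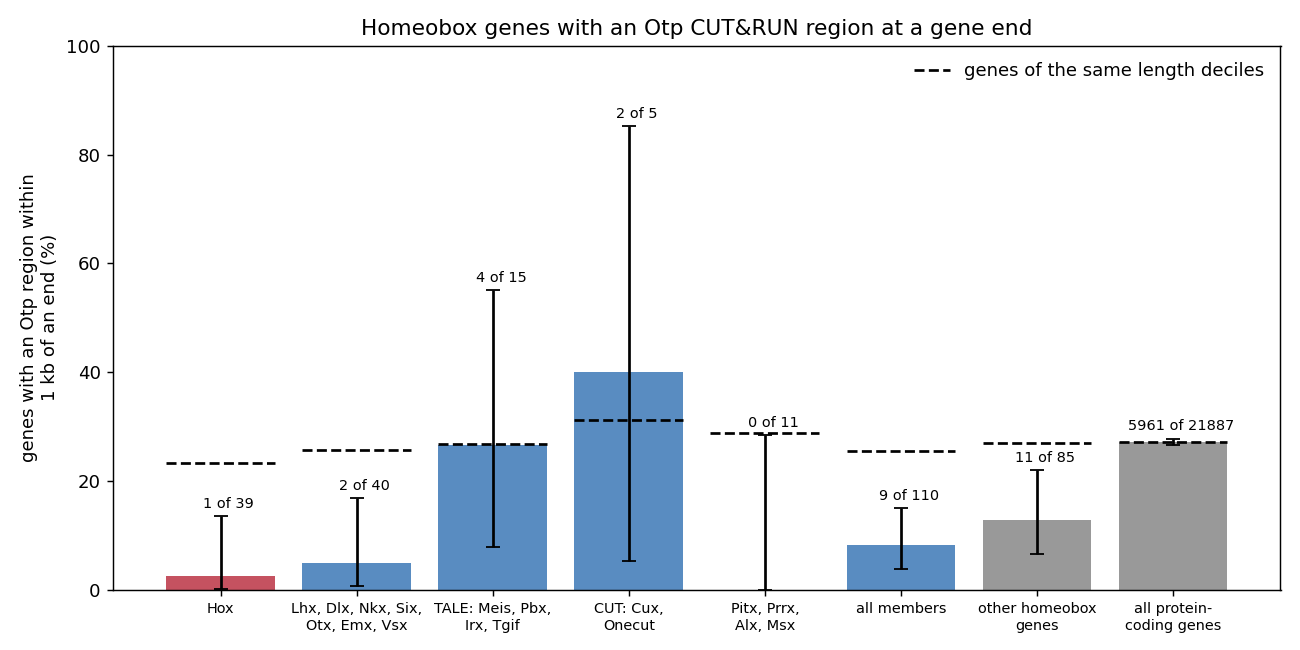
Percent of genes with an Otp summit within 1 kb of an end (bars, vertical axis) by group (horizontal axis), with 95% exact binomial intervals and, as dashed lines, the percent among genes of the same length deciles. The Hox bar stands at 2.56% and that of all 110 members at 8.18%, below their dashed lines at 23.3% and 25.6%, while the TALE bar stands at its line.

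Promoter sequences are shown for the 2 homeobox genes whose listed RefSeq promoter (250 bases before to 50 after the start, build GRCm38.p6) holds an Otp summit, Pbx4 and Meis1. That of Hoxb8 is shown beside them because it is the Hox gene with a region at an end, although that region lies outside its promoter. In the first and second sequences the capitals mark the summit with 10 bases on each side, and in the third they mark each TAAT or its reverse complement. All run 5′ to 3′ on the strand of the gene. Pbx4 lies at chr8:69832374-69832673, forward strand. Meis1 lies at chr11:19018920-19019219, reverse strand. Hoxb8 lies at chr11:96281655-96281954, forward strand.
Pbx4: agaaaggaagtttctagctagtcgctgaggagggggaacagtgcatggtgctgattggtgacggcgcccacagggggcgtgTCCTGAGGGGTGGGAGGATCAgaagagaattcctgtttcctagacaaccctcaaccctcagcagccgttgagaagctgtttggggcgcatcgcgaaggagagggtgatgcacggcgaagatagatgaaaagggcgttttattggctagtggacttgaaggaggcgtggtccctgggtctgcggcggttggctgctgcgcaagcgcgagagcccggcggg
Meis1: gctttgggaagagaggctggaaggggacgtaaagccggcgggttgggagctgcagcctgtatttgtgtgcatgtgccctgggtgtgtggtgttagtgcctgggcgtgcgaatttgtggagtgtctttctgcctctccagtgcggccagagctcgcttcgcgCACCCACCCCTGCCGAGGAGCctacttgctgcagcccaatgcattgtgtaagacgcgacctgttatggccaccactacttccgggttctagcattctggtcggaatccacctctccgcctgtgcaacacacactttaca
Hoxb8: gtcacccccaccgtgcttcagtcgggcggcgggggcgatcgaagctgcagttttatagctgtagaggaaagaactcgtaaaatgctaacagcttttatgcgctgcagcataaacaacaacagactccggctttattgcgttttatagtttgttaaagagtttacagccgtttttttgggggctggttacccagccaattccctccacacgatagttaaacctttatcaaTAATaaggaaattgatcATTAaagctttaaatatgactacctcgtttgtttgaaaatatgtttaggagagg

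The Pbx4 and Meis1 promoters hold no TAAT on either strand, and the Hoxb8 promoter holds 2. TAAT, read on both strands, occurs in 51.8% of the 21263 listed promoters of protein-coding genes and in 46 of the 85 listed promoters of homeobox genes (54.1%). Of the 4692 promoters that hold an Otp summit, 40.9% have it. The longer palindrome TAATTA, each copy of which contains TAAT, occurs in 4.53% of all promoters, in 7 of the 85 homeobox promoters (8.24%) and in 2.30% of those with an Otp summit. None of the 3 printed promoters has TAATTA. A match of letters is a description of the sequence, not evidence of binding.

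Among the 8 genes described here, the TALE gene Pbx4 carried the strongest region. Strength is given as tags, the reads or fragments piled up at the summit, worked out from the deposited fold enrichment and p of each region. At Pbx4, whose family partners Hox proteins, the region chr8:69832291-69832701 had 29 tags (95% Poisson interval 19.4 to 41.6) and a fold enrichment of 10.6. Its summit lay 11 bp outside the lower end of the gene, and by −log10 q it ranked 1259 of 11379. It stood above the median of 15 tags at Otp regions at the ends of any protein-coding gene (interquartile range 12 to 22), and its interval lies above that median too. Pbx3 had 8 tags (3.45 to 15.8) with a fold enrichment of 5.12, 767 bp from its upper end, and ranked 10498 of 11379. Meis1, a TALE factor that binds together with Pbx, had 12 tags (6.2 to 21) with a fold enrichment of 7.48, and its summit lay inside the gene, 603 bp from the upper end and 79 bp upstream of the listed start.

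**Figure D2:**
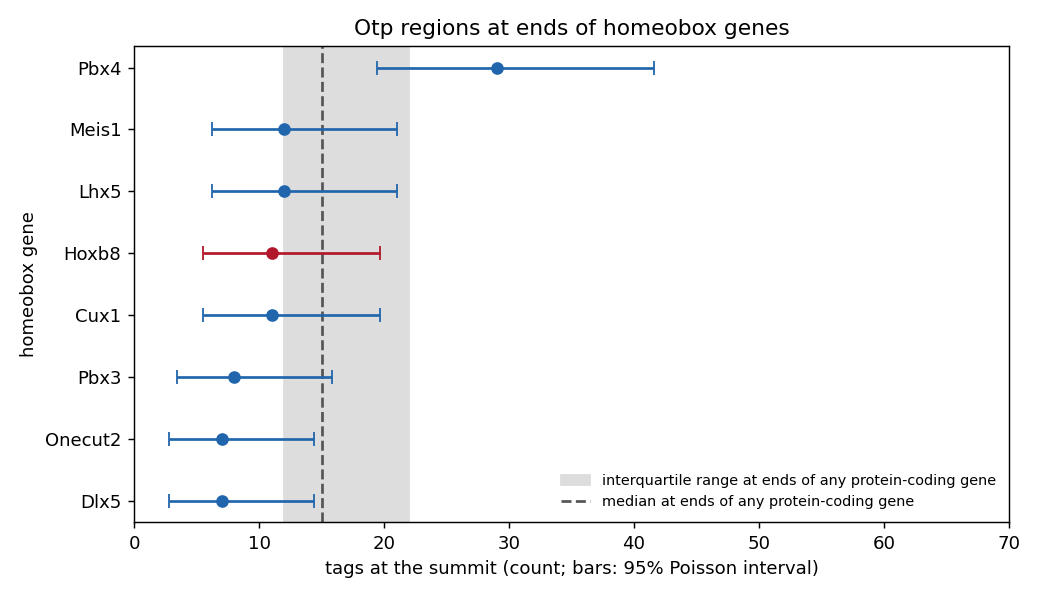
Tags at the summit (horizontal axis, count) of the Otp regions at the ends of 8 homeobox genes (vertical axis), with 95% Poisson intervals. The dashed line is the median of 15 tags at the ends of any protein-coding gene, and the band its interquartile range of 12 to 22 tags. Pbx4 lies right of the band, and the other 7 genes shown have 7 to 12 tags.

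The other families had regions of 7 to 12 tags. Lhx5, a LIM homeodomain factor of the developing forebrain, had 12 tags (6.2 to 21) at a fold enrichment of 7.92, 57 bp from its lower end. Dlx5, which acts in GABAergic neurons of the forebrain and in the face, had 7 tags (2.81 to 14.4) at a fold enrichment of 4.78, 9 bp inside its upper end. Among the CUT class, Cux1, a factor of upper-layer cortical neurons, had 11 tags (5.49 to 19.7) at a fold enrichment of 6.92, and Onecut2 had 7 tags (2.81 to 14.4) at 4.76. The summit at Cux1 was 261 bp inside the upper end of the gene and 1348 bp upstream of the listed start. By −log10 q, Dlx5 and Onecut2 ranked only 10972 and 10993 of 11379, in a list whose smallest region had 6 tags. The lists were then scaled to each other to ask what the IgG library could have shown. The genome background was 0.512 tags with Otp and 0.0873 tags with IgG, a ratio of 5.86. Scaled by it, the tags at Pbx4 correspond to 4.94 IgG tags, more than the smallest IgG region, which had 4 tags. That scaled value leaves out the counting error, and a difference from IgG at Pbx4 was not tested. The other 7 shown correspond to 1.19 to 2.05 tags, or 2.14 to 3.66 by the median ratio of 0.305 at 226 regions of both lists. For these 7 a difference from IgG was therefore not detectable at this depth.

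Starts were then counted apart from the far ends of genes. The reference table lists a start for 70 of the 110 homeobox genes. Of these 70, 2 had an Otp summit within 1 kb of a listed start, Pbx4 and Meis1, against 29.5% of the 17492 protein-coding genes with a start. None of the 22 Hox genes with a start had one. Counted at either end, only 4 of the 70 had a region. Pbx3, Lhx5, Dlx5 and Onecut2 have no listed start and could not be placed.

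The single Hox region lay between Hoxb9 and Hoxb8, at chr11:96278927-96279035. It had 11 tags (5.49 to 19.7) over a background of 0.512 tags, a fold enrichment of 7.94, and ranked 4850 of 11379. Its summit was 433 bp below the lower end of Hoxb8, 2373 bp from Hoxb9 and 2937 bp upstream of the listed start of Hoxb8. This one region also gave every count around Hox genes within 50 kb. It lay within that distance of 7 genes, Hoxb3 to Hoxb9, and the other 32 Hox genes had none.

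All 4 Hox clusters were nearly or fully free of regions. The Hoxa cluster (11 genes over 106 kb from position 52155367 of chromosome 6), the Hoxc cluster (9 genes over 116 kb from position 102921131 of chromosome 15) and the Hoxd cluster (9 genes over 96.9 kb from position 74668225 of chromosome 2) held 0 Otp regions, also with 50 kb on each side. The Hoxb cluster (10 genes over 174 kb from position 96194316 of chromosome 11) held the 1 just described. IgG regions numbered 0 in all 4, flanks of 50 kb included. None of the 31 non-coding genes annotated within 5 kb of the clusters, such as Hotair and Hotairm1, had an Otp region at an end. With 5 kb flanks the clusters had 0.188 Otp regions per 100 kb, against 0.428 across the span of regions on all chromosomes. The value for the clusters rests on 1 region, and the contrast was not tested.

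Stretches of this length without a region are not rare in the list. The Hoxa cluster lay in a stretch of 628 kb between neighbouring Otp summits, and 8.19% of the 11333 such stretches were as long. For the Hoxc cluster the stretch was 366 kb (15.3%), for the Hoxd cluster 247 kb (23.3%) and for the Hoxb cluster, at its longest, 203 kb (27.7%). Because long stretches cover more sequence, 50.8% of the covered length lay in stretches at least as long as that of Hoxa. Gene density sets the clusters beside other sequence. A Hox gene had a median of 13 ends of other protein-coding genes within 50 kb, a non-Hox member 1, and any protein-coding gene 4. Of the 21 Hox genes with at least 13 such ends, 3 had an Otp region within 50 kb (14.3%), against 84.3% of all 1696 protein-coding genes with as many. Of the 2 non-Hox members with at least 13, 2 had one. With fewer than 13 ends, it was 4 of 18 Hox genes (22.2%) and 27 of 69 non-Hox members (39.1%). Of all 20191 protein-coding genes with fewer, 61.0% had one. The neighbours of a Hox gene include the others of its cluster, so these windows overlap.

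Regions were also counted at the genes beside the clusters. Of the 19 protein-coding genes within 250 kb of a cluster, 8 carried a region (42.1%, 20.3 to 66.5%, an interval that covers the 27.2% of all genes). Of these, Cbx5 and Hnrnpa1 are neighbours counted through the same 3 regions. Below the Hoxa cluster the first summit was 143 kb away, at Skap2, an adaptor protein (fold enrichment 8.87, 14 tags), and above it 380 kb away, at Hibadh of valine breakdown (9.0, 18 tags). Beside the Hoxb cluster they lay 118 kb below, at Atp5g1, a subunit of ATP synthase (11.8, 40 tags), and 94.2 kb above, 2153 bp from Skap1 (6.72, 12 tags). Beside the Hoxc cluster they lay farther from gene ends. The one 124 kb below was 75233 bp from Calcoco1. The one 127 kb above lay inside Smug1, 5550 bp from its end. The Hoxd cluster lay between regions at Lnpk, a protein of endoplasmic reticulum junctions (10.1, 15 tags), and Mtx2, a protein of mitochondrial import (6.61, 9 tags). Evx1 and Evx2, the homeobox genes next to the Hoxa and Hoxd clusters, had none at an end.

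**Figure D3:**
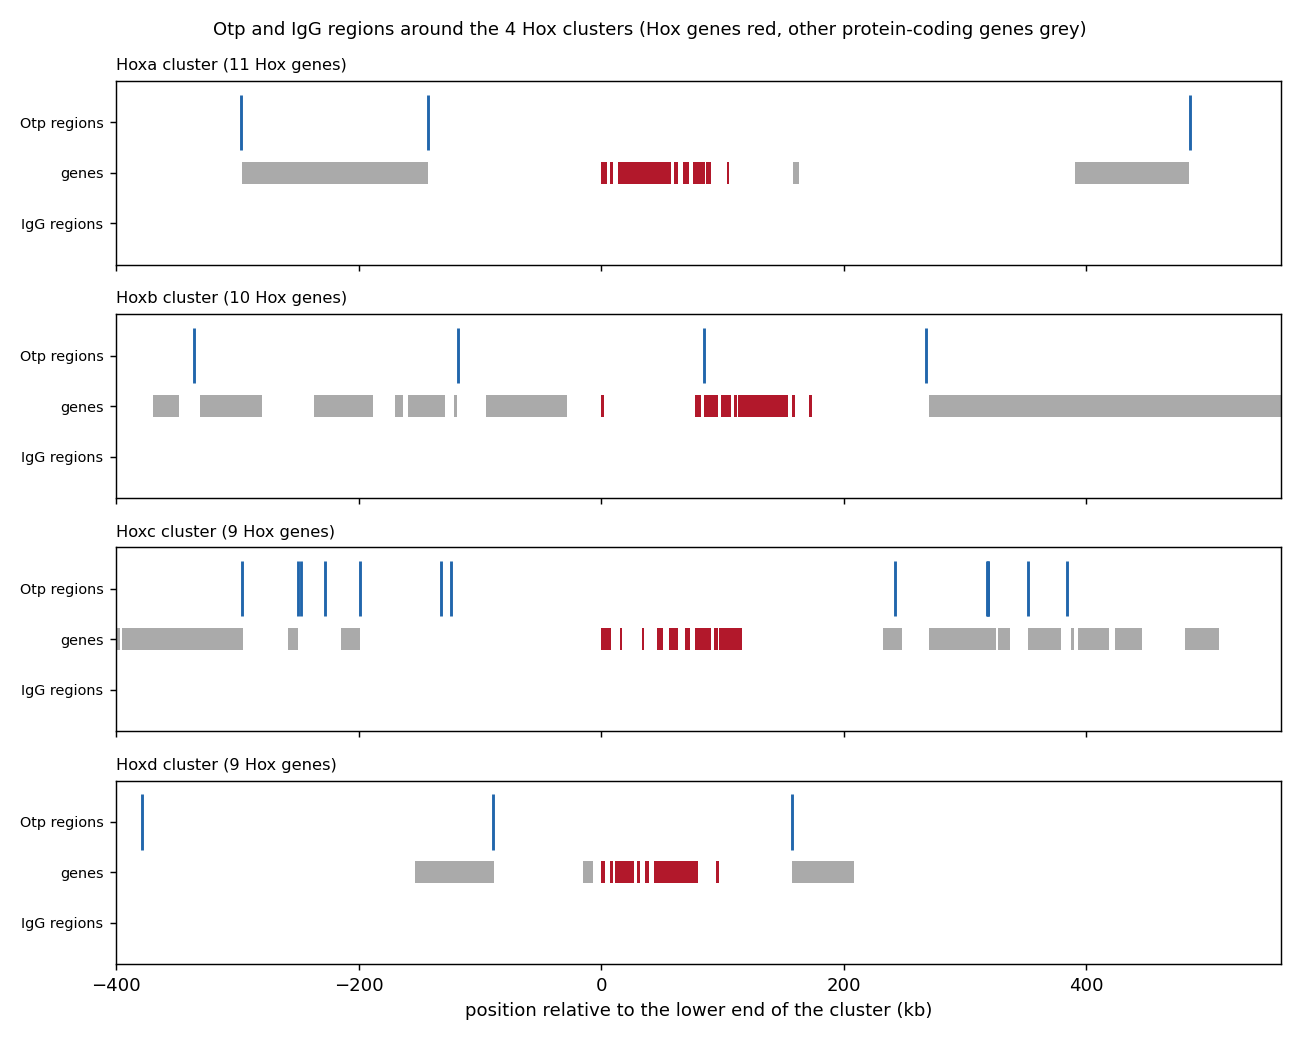
Otp regions (upper ticks) and IgG regions (lower row, none in these windows) around the 4 Hox clusters, with Hox genes in red and other protein-coding genes in grey. The horizontal axis is the distance in kb from the lower end of each cluster. A single Otp region falls within the red genes, in the Hoxb cluster, and the others lie at least 60.7 kb outside.

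Within 50 kb of an end, 36 of the 110 homeobox genes had at least 1 Otp region (32.7%, 24.1 to 42.3%), against 62.8% of all protein-coding genes and of length-matched genes alike. The Hox genes had 7 of 39 (17.9%, 7.54 to 33.5%, against 60.1% of length-matched genes) and the other families 29 of 71 (40.8%, 29.3 to 53.2%, against 64.3%). All 7 Hox genes were counted through the same region, and the windows of a cluster overlap. The Hox interval takes the genes as independent and is therefore too narrow. The median number of regions was 0 for Hox genes and for the other families, and 1 over all genes. The median distance to the nearest Otp summit was 124 kb for Hox genes (interquartile range 79.9 to 169 kb), 65.0 kb for the other families (14.1 to 170 kb) and 22.4 kb for all protein-coding genes (0.488 to 105 kb). More than 100 kb separated 61.5% of Hox genes, 39.4% of the other members and 25.7% of all genes from a summit. Farther out the curves crossed, and that of the Hox genes reached 100% before that of all genes.

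**Figure D4:**
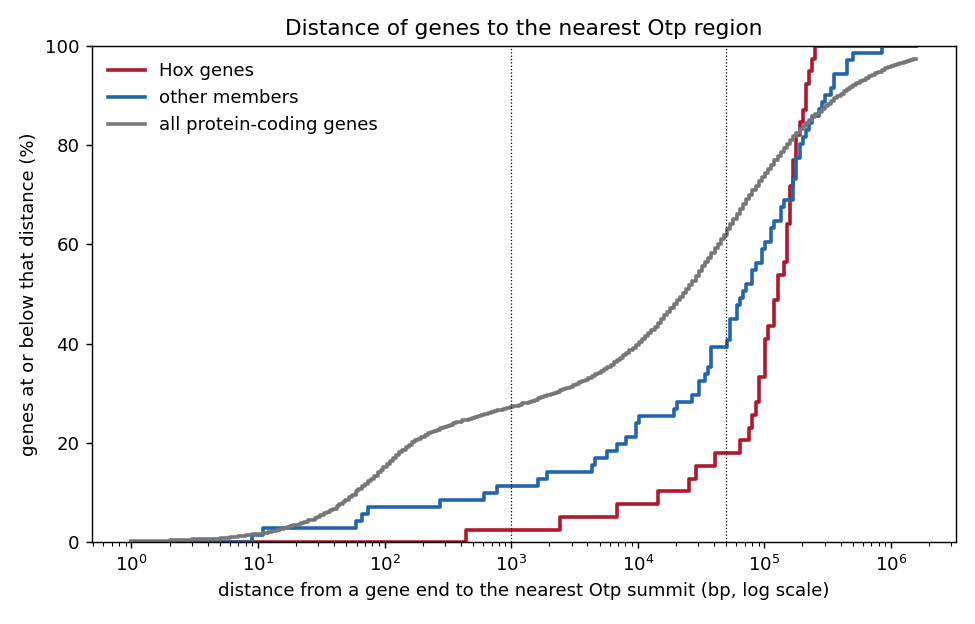
Percent of genes (vertical axis) whose nearest Otp summit lies within a given distance of an end (horizontal axis, bp, log scale), for Hox genes (red), the other members (blue) and all protein-coding genes (grey). Dotted lines mark 1 kb and 50 kb, where the Hox curve stands at 2.56% and 17.9% and the grey curve at 27.2% and 62.8%.

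Many regions near homeobox genes had another gene closer by. The 36 genes shared 42 distinct Otp regions within 50 kb. For 28 of the 42 the nearest protein-coding end was that of a gene outside the set, and for 21 it was within 1 kb. The strongest region near a member was of this kind. It lay 4157 bp from Pitx3, a factor of midbrain dopamine neurons, but 27 bp from Gbf1, a regulator of Golgi traffic (chr19:46152199-46152553, 53 tags, fold enrichment 19.7). Six5, with 5 regions within 50 kb the highest count of any member, had none nearer than 18493 bp, and its regions lay nearest to Dmwd, Fbxo46 and Sympk. Pbx2 had 4, nearest to Rnf5, Prrt1, Fkbpl and Atf6b, and Nkx1-2 had 3, all nearest to Oat. A pair of regions was counted for Pbx3, Pbx4, Cux1, Dlx5 and Dlx6 each. The strongest regions within 50 kb of the families Prrx, Lhx, Meis and Msx lay within 144 bp of Ntmt1 (near Prrx2), Morn5 (near Lhx6), Dhx34 (near Meis3) and Tubgcp2 (near Msx3). Their tags were 34, 22, 18 and 16 in that order. At Cux1 the stronger of the pair lay 3211 bp from the gene and 1671 bp from Sh2b2 (14 tags, 7.65 to 23.5).

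A few regions had a homeobox gene as their nearest coding gene without lying at its end. The first outside the 1 kb limit was 1603 bp from Irx5, an Iroquois factor of retina and heart, with 12 tags (6.2 to 21), and the last inside it was that of Pbx3 at 767 bp. The Irx5 region lay nearest to the non-coding gene Crnde and overlapped an IgG region of 4 tags (1.09 to 10.2). Between Dlx6 and Dlx5, 1893 bp from Dlx6, a region had 9 tags (4.12 to 17.1). Onecut1 held one 9240 bp inside the gene with 12 tags (6.2 to 21). A region 9774 bp from Nkx2-6 had 18 tags with Otp and a fold enrichment of 12.6, and overlapped an IgG region of 8 tags (3.45 to 15.8) with a fold enrichment of 7.87. These 2 sites, at Irx5 and near Nkx2-6, were the only ones within 50 kb of a member where both lists had a region, and they put an IgG region near 3 genes where 1.67% of all genes had one.

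**Figure D5:**
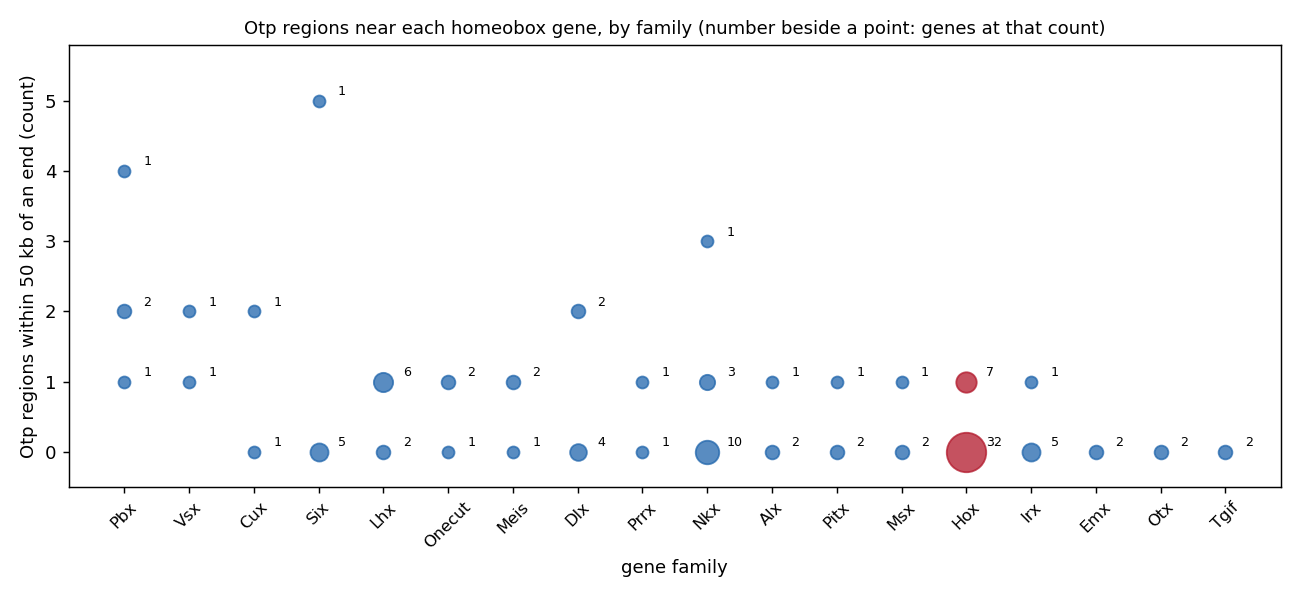
Number of Otp regions within 50 kb of an end (vertical axis, count) for each of the 110 genes, grouped by family (horizontal axis, ordered by mean). A point stands for all genes of the family at that count and the figure beside it gives how many. Of the Hox genes 32 stand at 0 and 7 at 1, and the highest point, at 5, is Six5.

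Several members that pattern the hypothalamus and forebrain were far from any region, an account chosen after their values were seen. Others of their families were nearer. Of the 40 regional forebrain, eye and hypothalamic genes, 15 had a region within 50 kb (37.5%, against 63.0% of length-matched genes). Among the Lhx genes 6 of 8 had one (75%, against 69.6%). Of these, only Lhx5 was itself the protein-coding gene nearest to its region. The regions of the others lay nearest to genes outside the set. Of all protein-coding genes, 25.7% lay more than 100 kb from a summit. The nearest summit was 186 kb from Nkx2-1, which specifies the ventral hypothalamus, 232 kb from Six3 and 179 kb from Six6, which act in the anterior forebrain and eye, and 210 kb from Otx2. It was 167 kb from Lhx2. For Dlx1 and Dlx2 it was 65.0 and 52.3 kb, where the median of the non-Hox members was 65.0 kb. Both Emx genes, both Otx genes and both Tgif genes had none within 100 kb, with the nearest at 110 kb from Tgif1. Meis2 was the farthest of all members, at 833 kb, although its paralogue Meis1 had one at an end.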

How the data were processed

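The files are peak lists in narrowPeak layout, 1 per library, called per sample. Trimmomatic, Bowtie2, Picard, SAMtools and MACS2 with build mm10 are named in the submitters' processing notes. Versions, settings, duplicate handling and any control library in peak calling were not stated there. The authors deposited the fold enrichment, a ratio over the caller's background, with its −log10 p and −log10 q, and the lowest −log10 q was 2.01 with Otp and 2.03 with IgG. The deposited display score repeats the −log10 q and was not used. Total depth is unknown.

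Genes came from the RefSeq table of GRCm38.p6, the assembly of mm10, which has no exons. Starts and promoters came from a RefSeq promoter table that matched 70 of 110 members (63.6%), under the 80% needed, so a check of base composition over the members is void. Distances run from summits to gene ends. Length-matched shares are means over members of the share in their length decile (10 bins). Lists were overlapped with a minimum of 1 bp. Tags were solved as the whole number for which the Poisson tail fell within 0.001 of the deposited −log10 p, the next whole number missing by over 0.005, given a fold of tags plus 1 over background plus 1. This gave tags for 11182 Otp regions (98.3%) and 262 IgG regions (90.0%). Intervals (95%) cover counting error only.

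The members and lists were chosen with earlier results of these data known. Genes named are those with a region at an end, the strongest per family within 50 kb, those with the most regions, those near the 1 kb limit, all Hox regions and flanking genes, and any near an IgG region. Alternatives were windows of 500 bp, 5, 20 and 100 kb, stricter thresholds, removal of IgG overlaps, region overlap in place of summits, nearest gene only, starts only and other length bins. Some genes and regions are not reported here by name. Counting was tested on simulated regions. Python 3.11.15, numpy 2.4.6, scipy 1.17.1, pandas 2.3.3 and matplotlib 3.10.9 were used.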

Additional observations from a re-analysis of the deposited data

How the results depend on the processing

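Of 69 alternative values, 56 stayed close to the reported value and 13 moved. Counts and medians were held to a ratio of 1.5, and length-matched shares to a 95% interval. Some of the 56 could not have moved, so the tally does not measure stability. A median of 0 cannot fall under a smaller window, a stricter threshold or removal of IgG overlaps. That removal could not change the counts at member ends either, as none of those regions overlapped an IgG region. Within 5 kb, 14 homeobox genes carried an Otp region, 2 of them Hox genes (Hoxb8 and Hoxb9, through the same region), against 34.4% of all genes. At a −log10 q of at least 10, 2 of the 110 homeobox genes were left (both non-Hox), with 0 Hox genes and 0 regions in the Hox clusters. Of all genes 2938 were left, or 13.4%. At a −log10 q of at least 5, 6 homeobox genes were left, 5 of them non-Hox, against 23.3% of all genes. Those lost were Pbx3, Dlx5 and Onecut2. With starts only, 2 of the 70 homeobox genes with a listed start were left, both non-Hox, and 0 Hox genes. Of those 70, only 4 had a region at either end. The other homeobox genes with a region at an end have no listed start. They could not be scored, so part of this fall comes from missing starts. Of all genes with a listed start, 29.5% had a region there. Within 100 kb the median number of regions was 1 for all members and 1 for the non-Hox members. Under the 8 settings of window, threshold, overlap and nearest gene, 2 to 14 members had a region at an end, and the share of all genes was 13.4 to 34.4%. Counting the gene body with 1 kb flanks, an alternative chosen after seeing the data, gave 11 members. The same setting gave 35.3% of all genes and 30.4% of length-matched genes. No paired analysis was possible because neither antibody has a second library. Read totals are unknown, and at regions of few Otp tags the IgG library is too shallow to show a difference.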

Other observations

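Homeobox genes outside the 18 families were counted in the same way from a list of 85 genes, among them Otp itself and POU, Pax, Zfhx and Zhx genes. Of these, 11 had an Otp region at an end (12.9%, 95% exact binomial interval 6.64 to 22.0%), against 27.0% of length-matched genes. The POU class, whose members join a homeodomain to a second DNA-binding domain, had 4 of its 14 listed genes (28.6%, 8.39 to 58.1%), near the 27.2% of all protein-coding genes. Pou2f1, a broadly used factor, was the strongest with 43 tags and a fold enrichment of 12.7, followed by Pou3f2 (18 tags), Pou3f3 (12 tags) and Pou3f4 (11 tags), which act in developing neurons. Pou3f2 is also a factor of the PVN itself. Otp was not among the 11, with its nearest region 1565 bp from an end. Within 50 kb of Otp the Otp list had 1 region and the IgG list 2. It was the only 1 of the 85 genes with an IgG region within that distance. The large zinc finger homeobox genes Zfhx2 and Zfhx4 had 15 and 10 tags, Zeb1, a repressor, had 12, and the nuclear factor Adnp had 22. Zhx1, Zhx3 and Hdx completed the 11, with 17, 12 and 6 tags. Within 50 kb of an end, 43 of the 85 genes had a region (50.6%, 39.5 to 61.6%), against 64.4% of length-matched genes. No test of the difference from the 110 genes was run.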
